A study of Mus musculus with 4 samples.

Results

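The 7 hemoglobin genes Hba-a1, Hba-a2, Hba-x, Hbb-bs, Hbb-bt, Hbb-y and Hbb-bh1 were followed in single-cell libraries of fetal mouse penis, out of 32287 features counted. They were listed by name, not chosen by their values, and all 7 were found. Hemoglobin is a tetramer of alpha-type and beta-type chains that carries oxygen in red cells. In the mouse, the embryonic chains zeta (Hba-x), epsilon-y (Hbb-y) and beta-h1 (Hbb-bh1) are typical of primitive red cells, which arise in the yolk sac. Definitive red cells from the fetal liver make mainly the adult chains alpha (Hba-a1 and Hba-a2) and beta (Hbb-bs and Hbb-bt). The red cells of the penis come with the blood, and whether its other cells make any hemoglobin was not tested here.

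The samples were penises of embryonic day 16.5, 2 controls (Nr5a1cre- x DTA f/+, labelled DTA-) and 2 in which Nr5a1-positive cells were ablated (Nr5a1cre+ x DTA f/+, labelled DTA+). All 4 thus carried the conditional allele for diphtheria toxin at Rosa, and the groups differed in the Cre transgene under Nr5a1 control. The methods give ablated embryos a conditional tdTomato reporter at Rosa as well, and whether the controls carried it is not given in the sources used here. By the study's methods and text, the Cre also acts in testes and adrenals, so the DTA+ group is not a lesion of the penis alone. The libraries were made with the 10x Genomics 3' method, and the unit is the unique molecular identifier (UMI), which marks 1 captured mRNA molecule.

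The libraries held 11343 to 12580 cells and 50779551 to 73577028 UMIs, of which globins took 6.65 to 14.1%. The reporter tdTomato had 3579 and 3140 UMIs in the DTA+ libraries and 0 in both DTA- libraries, and Nr5a1 had 1 or 2 UMIs in each. Any pair of libraries shared 31 to 48 cell barcodes, of which 0 to 2 were red cells in both. The first DTA- library was the deepest, and the second DTA+ library held the fewest red cells. Nothing in the labels says whether the 2 samples of a genotype came from separate litters, so the tests measure only the spread between these samples. In such sums over cells, fewer cells of a type and less RNA per cell cannot be told apart unless both are given.

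The genes lie in 2 clusters of the GRCm38 genome, each with 3 exons in its longest coding transcript (GENCODE M21 annotation). The alpha cluster is on chromosome 11, plus strand, with Hba-x (ENSMUSG00000055609, chr11:32276400-32278116), Hba-a1 (ENSMUSG00000069919, chr11:32283511-32284465) and Hba-a2 (ENSMUSG00000069917, chr11:32296489-32297298) in this order. The beta cluster is on chromosome 7, minus strand, so that transcription meets first Hbb-y (ENSMUSG00000052187, chr7:103851749-103853216), then Hbb-bh1 (ENSMUSG00000052217, chr7:103841637-103843164), Hbb-bs (ENSMUSG00000052305, chr7:103826534-103828096) and Hbb-bt (ENSMUSG00000073940, chr7:103812524-103813996). In both clusters the embryonic genes stand before the adult ones.

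The 130 bases before the RefSeq start (GRCm38.p6) are shown for the 6 members that the promoter table holds, because the adult and embryonic members differ so widely in level below. Each is printed 5′ to 3′ on the gene's own strand. Capitals mark, on either strand, the letters of 3 elements known from globin promoters, the CACCC box (searched as CACCC), the CAAT box (searched as CCAAT, or ATTGG on the other strand) and the TATA box (searched as ATATAA).
Hba-a1 (chr11:32283542-32283671, +): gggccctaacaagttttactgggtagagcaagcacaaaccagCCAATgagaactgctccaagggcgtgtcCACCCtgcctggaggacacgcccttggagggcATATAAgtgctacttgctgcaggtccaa
Hba-a2 (chr11:32296362-32296491, +): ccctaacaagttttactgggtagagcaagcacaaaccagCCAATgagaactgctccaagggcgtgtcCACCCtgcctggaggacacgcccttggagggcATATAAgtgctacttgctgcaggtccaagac
Hbb-bs (chr7:103827929-103828058, -): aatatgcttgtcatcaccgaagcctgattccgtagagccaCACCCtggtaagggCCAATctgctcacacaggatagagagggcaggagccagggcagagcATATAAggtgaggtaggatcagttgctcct
Hbb-bt (chr7:103813924-103814053, -): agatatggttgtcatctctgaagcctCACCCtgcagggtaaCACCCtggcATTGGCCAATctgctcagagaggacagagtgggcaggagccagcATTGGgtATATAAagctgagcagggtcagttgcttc
Hba-x (chr11:32276470-32276599, +): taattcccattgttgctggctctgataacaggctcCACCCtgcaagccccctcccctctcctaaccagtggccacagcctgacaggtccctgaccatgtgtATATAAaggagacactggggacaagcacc
Hbb-y (chr7:103853208-103853337, -): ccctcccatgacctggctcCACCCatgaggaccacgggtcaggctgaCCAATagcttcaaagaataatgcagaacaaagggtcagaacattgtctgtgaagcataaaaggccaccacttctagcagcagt

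Over their 127 aligned bases, the Hba-a1 and Hba-a2 windows are identical. Between Hbb-bs and Hbb-bt, 101 of 126 aligned bases match. All 4 adult windows hold letters of the CACCC box, the CAAT box and the TATA box. Hbb-bt has the CACCC box at 2 places and the CAAT box in both orientations. The Hba-x window lacks the letters CCAAT searched for the CAAT box, and the Hbb-y window lacks the letters ATATAA searched for the TATA box. Other spellings of these boxes were not searched. Among 32851 promoter windows of this length, 33.7% hold the CACCC box, 22.4% the CAAT box and 4.75% the TATA box on either strand. Such matches describe letters and show no bound factor.

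Because the pairs are recent copies, reads could be shared between them. The coding sequences of Hba-a1 and Hba-a2 match at 425 of 426 bases and those of Hbb-bs and Hbb-bt at 440 of 441. In the last 300 bases of the transcript, where 3' libraries read, 57.3% of 90-base windows of Hba-a1 occur identically in Hba-a2, against 24.6% of those of Hbb-bs in Hbb-bt. The split within each pair is therefore uncertain, more so for alpha than for beta. None of the 90-base windows of Hba-a1 or Hbb-bs occur in the embryonic genes.

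Cells fell into those with almost only globin RNA and those with nearly none. Cells with at least 50% globin UMIs, called red cells here, numbered 2746 and 1976 in the DTA- libraries and 1881 and 969 in the DTA+ libraries, or 7572 of 47040 cells. In them, globins made up a median of 92.1 to 93.0% of a cell's UMIs, with a median of only 94 to 118 genes per cell. Cells with under 5% globin UMIs numbered 38222 in all, and only 1246 cells lay between these limits. The 6 markers of red cells other than globins that were in the matrix, among them Alas2 and Slc4a1, summed to 19453 to 24659 per 1000000 non-globin UMIs in red cells and 12.3 to 19.5 in cells under 5%. The name red cell thus holds for the markers. The 9 mesenchyme markers still summed to 3980 to 6060 per 1000000 non-globin UMIs in red cells, against 9379 to 14809 in cells under 5%, and their part in the non-globin values of red cells was not tested.

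**Figure D1:**
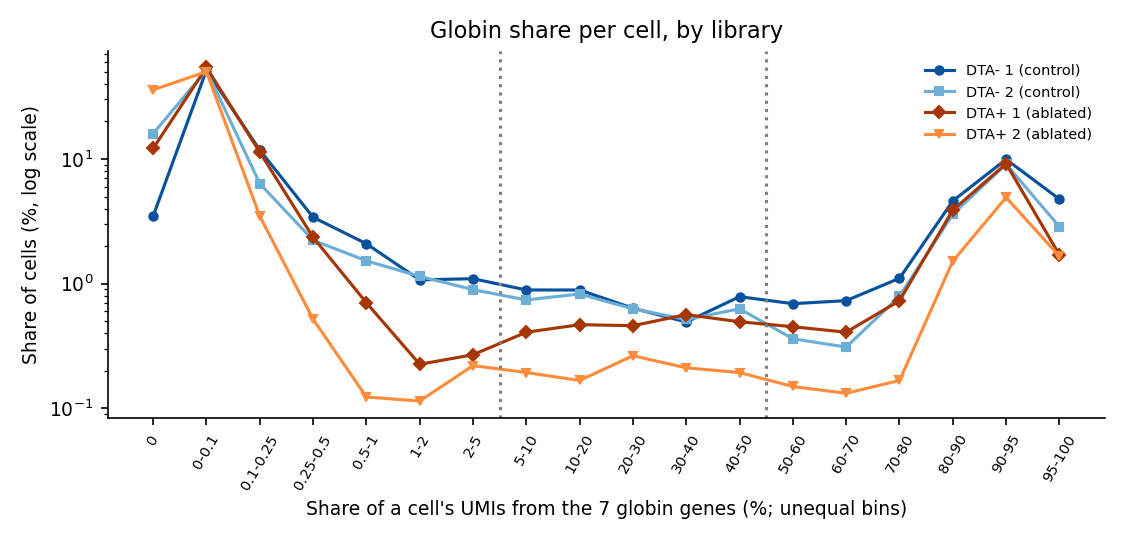
Share of cells (percent, log scale) by the share of a cell's UMIs that came from the 7 globin genes, as lines for the 4 libraries; dotted lines mark 5% and 50%. Each library has a large group of cells near 0 and a second group at 80 to 100%, and the second DTA+ library lies lowest in every bin above 0.1%.

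Red cells made up 21.8% (95% Clopper-Pearson interval 21.1 to 22.6) and 17.02% (16.3 to 17.7) of the cells in the DTA- libraries. In the DTA+ libraries they made up 16.3% (15.7 to 17.03) and 8.54% (8.03 to 9.07). These intervals cover counting error only. The means were 19.4% ± 3.397 (SD, n = 2) and 12.4% ± 5.52 (SD, n = 2), and the groups did not overlap, although the second DTA- and the first DTA+ library lay side by side. An exact two-sided permutation test gave p = 0.333, the smallest value that 2 against 2 samples allow, and 0.533 after Benjamini-Hochberg adjustment over 8 shares and levels.

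Hbb-bs was the most abundant globin in red cells in every library. It took 57.6% and 59.3% of globin UMIs in the DTA- libraries, and 56.6% and 57.0% in the DTA+ libraries. Hba-a1 took 15.5% and 15.9%, then 16.7% and 15.7%. For Hbb-bt the values were 15.4% and 13.4%, then 14.4% and 15.3%. Hba-a2 was last of the adult genes, with 11.6% and 11.4%, then 12.3% and 12.1%. Hba-a1 lay above Hbb-bt in 4 of 4 libraries, by little in the first DTA- and the second DTA+ library, and their ranges over libraries overlapped. These are shares of molecules counted at the 3' end, so they do not depend on transcript length.

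**Figure D2:**
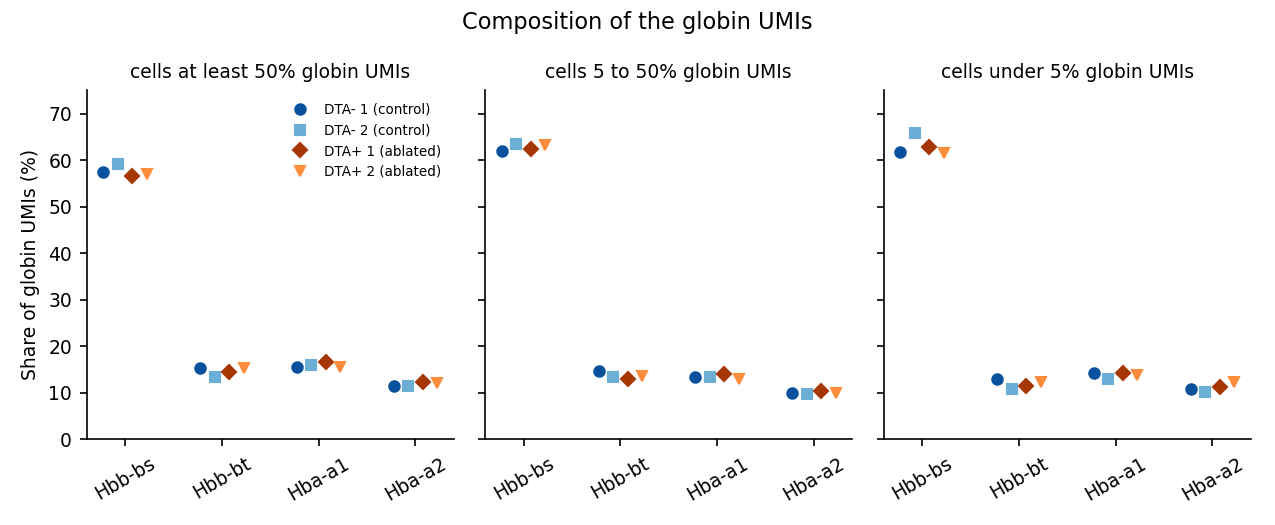
Share of globin UMIs (percent) taken by each adult globin gene in cells of at least 50%, 5 to 50% and under 5% globin UMIs, 1 point per library. In all 12 columns of points Hbb-bs lies between 56.6% and 65.9%, and the other genes between 9.65% and 16.7%.

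No difference between genotypes in the level of an adult globin in red cells passed the test. In edgeR's quasi-likelihood test on UMIs summed per library, the log2 fold change of DTA+ over DTA- was -0.03 (SE 0.26) for Hba-a1, 0.02 (SE 0.26) for Hba-a2, -0.10 (SE 0.27) for Hbb-bs and -0.00 (SE 0.26) for Hbb-bt. With adjusted p-values of 0.932 to 0.999 none of the 4 was called. Among 4469 genes tested in red cells, 0.0895% were called. Of the 4 adult genes, 2 had groups that did not overlap in counts per 1000000 UMIs (CPM), Hba-a2 higher and Hbb-bs lower in DTA+, where 35.8% of all genes tested had such groups. Since globins are about 90% of the UMIs of these cells, their levels are bound to each other, and the ratios below are free of that total.

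Hba-a1 to Hba-a2 in red cells was 1.34 and 1.39 in the DTA- libraries and 1.35 and 1.30 in the DTA+ libraries. The groups overlapped (log2 difference -0.04, exact permutation p = 0.667). Hbb-bs to Hbb-bt was 3.75 and 4.44, then 3.92 and 3.73, and overlapped too (log2 difference -0.09, exact permutation p = 0.667). Adult alpha to adult beta was 0.371 and 0.377 in DTA- and 0.409 and 0.383 in DTA+. Here the groups did not overlap, at means of 0.374 ± 0.00392 (SD, n = 2) and 0.396 ± 0.0183 (SD, n = 2), with an exact permutation p = 0.333. Adjusted over the 9 ratio comparisons between genotypes, these p-values were 0.750. Within classes of red cells by UMI count, given below, the groups for adult alpha to adult beta overlapped.

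Single red cells differed far more in the beta pair than in the alpha pair. Hbb-bt, as a share of Hbb-bs plus Hbb-bt, ran from 2.15% at the 5th percentile of cells over a median of 17.6% to 31.6% at the 95th in the first DTA- library. In the second DTA+ library it ran from 3.14% over 18.8% to 29.0%. Its SD over cells was 8.44 to 10.1 percentage points in the 4 libraries, where counting error alone gives 1.12 to 1.28. For Hba-a1 as a share of the alpha pair, the SD was 2.97 to 3.63 points against 2.34 to 2.79 from counting. The alpha pair thus stood above counting error in each library, but by far less than the beta pair. Reads of the alpha pair are the harder to tell apart, and the part of this in the contrast was not tested.

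The spread of the beta pair went with the number of UMIs in the cell. In red cells of 500 to under 2000 UMIs, Hbb-bs to Hbb-bt was 11.5 and 12.2 in the DTA- libraries and 13.5 and 11.9 in the DTA+ libraries. In those of 2000 to under 4000 UMIs it was 6.97 and 4.78, then 5.30 and 4.76. In those of 4000 UMIs or more it was 3.07 and 3.15, then 2.91 and 2.97. The deep cells had a ratio 4.04-fold lower than the shallow ones, a log2 difference of -2.02 ± 0.14 (SD, n = 4 libraries), with the same direction in 4 of 4 libraries. Deep and shallow cells did not overlap across libraries, and an exact two-sided sign-flip permutation test gave p = 0.125, the smallest that 4 libraries allow, or 0.188 adjusted over the 3 ratios compared. Depth limits were chosen after the ratios had been seen.

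The other ratios differed far less between depth classes. Hba-a1 to Hba-a2 was 1.30 to 1.36 in the shallow and 1.30 to 1.40 in the deep cells, a log2 difference of 0.01 ± 0.03 (SD, n = 4; exact sign-flip permutation p = 1.0). Adult alpha to adult beta was 0.313 to 0.369 in the shallow and 0.376 to 0.421 in the deep cells, higher in 4 of 4 libraries by 0.24 ± 0.12 on the log2 scale (SD, n = 4; exact sign-flip permutation p = 0.125). Since globins are most of a red cell's UMIs, its depth is nearly its globin count, and both measures come from the same molecules.

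**Figure D3:**
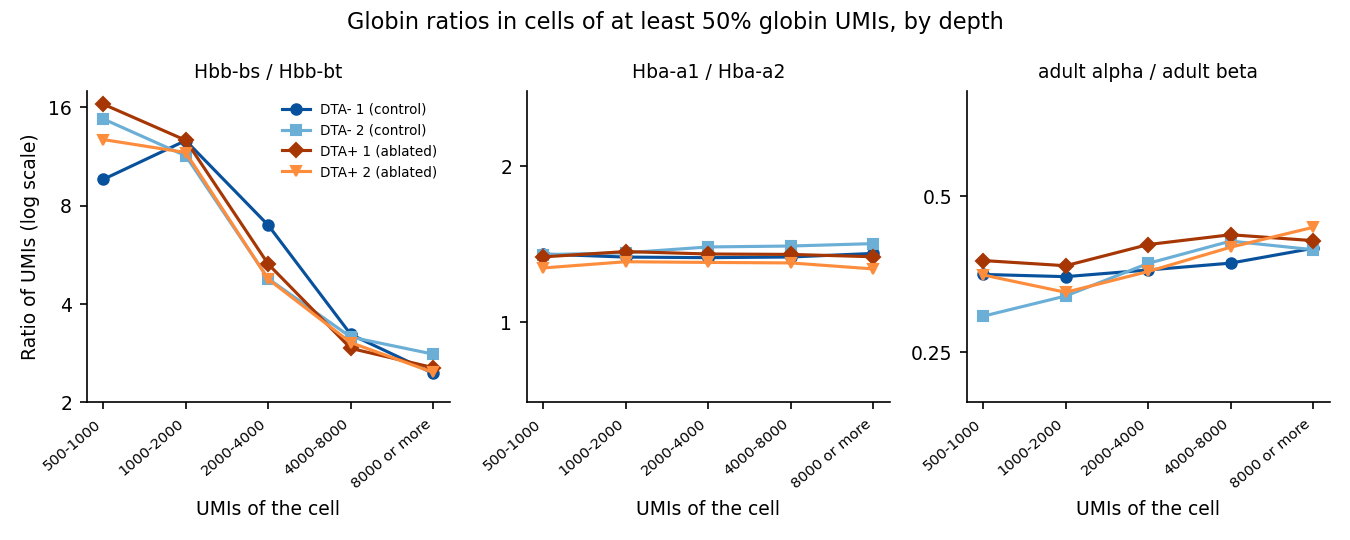
Ratios of summed UMIs (log scale) in red cells against the UMIs of the cell in 5 bins, 1 line per library. Hbb-bs to Hbb-bt goes from between 9.6 and 16.4 in cells of 500 to 1000 UMIs to between 2.45 and 2.81 in cells of 8000 or more, while Hba-a1 to Hba-a2 stays between 1.27 and 1.42.

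The genotypes were also compared within each depth class. The log2 difference of Hbb-bs to Hbb-bt, DTA+ minus DTA-, was 0.10 in shallow, -0.20 in intermediate and -0.08 in deep red cells, with exact permutation p-values of 0.667, 0.667 and 0.333. Only in the deep cells did the groups not overlap. For adult alpha to adult beta the log2 difference was 0.08 in shallow, 0.06 in intermediate and 0.07 in deep red cells. Its groups overlapped in each depth class. The second DTA- library, which had the highest Hbb-bs to Hbb-bt over all its red cells, had the fewest deep cells, 22.2% of its red cells against 34.4 to 46.2% in the others. Its red cells had a median of 2463 UMIs, against 3001 to 3627 in the others.

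Other red cell genes went along with Hbb-bt when taken per 1000000 non-globin UMIs. Shallow red cells held only 38342 to 142784 non-globin UMIs per library, so low values in shallow cells rest on few UMIs. Of the 10 measured genes for enzymes and other proteins of the red cell cytosol, 10 were higher in deep than in shallow red cells in all 4 libraries, with a median log2 difference of 2.24. Over all 3965 genes with a mean of at least 20 per 1000000, 20% were higher and 8.78% lower in all 4 libraries, with a median log2 difference of 0.08. Bpgm, which makes the 2,3-bisphosphoglycerate that lowers hemoglobin's oxygen affinity, stood at 1017 ± 99.4 in shallow and 9574 ± 1060 in deep cells (SD, n = 4 libraries). Prdx2, a peroxidase of red cells, stood at 1859 ± 716 and 8316 ± 3530. Bnip3l, needed to clear mitochondria, stood at 1697 ± 644 and 4411 ± 482, and Blvrb, a flavin and biliverdin reductase, at 818 ± 91.7 and 4027 ± 755.

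Membrane and skeleton genes followed, with 8 of 11 higher in deep cells in all 4 libraries and a median log2 difference of 2.28. Cd24a, a surface protein of maturing red cells, stood at 417 ± 135 in shallow and 3076 ± 504 in deep cells (SD, n = 4). The anion exchanger Slc4a1 (band 3) stood at 92.1 ± 14.6 and 816 ± 292, and Epb41, the protein 4.1 of the skeleton, at 1062 ± 387 and 2311 ± 448.

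Heme synthesis genes showed smaller differences. Of 8 measured, 6 were higher in deep cells in all 4 libraries, with a median log2 difference of 1.11. Alas2, the first and rate-limiting enzyme in red cells, stood at 4734 ± 2401 in shallow and 9765 ± 994 in deep cells, and Fech, which inserts the iron, at 981 ± 252 and 2125 ± 375 (SD, n = 4). Of 4 genes for iron uptake and storage, 2 were higher and 1 lower. Slc25a37, the mitochondrial iron importer mitoferrin, was at 1539 ± 636 and 4262 ± 836, and the ferritin light chain Ftl1 went the other way, at 34716 ± 4111 in shallow and 23660 ± 4280 in deep cells. Of 8 measured genes for globin switching and erythroid transcription, 2 (25%) were higher and 1 (12.5%) lower in all 4 libraries. These shares are near the 20% and 8.78% over all genes, so the list as a whole did not stand out. The shallow values of Lmo2, Klf3 and Bcl11a are among those that rest on few UMIs. Lmo2, a bridging protein of the GATA1 complex, stood at 39.98 ± 29.3 and 266 ± 26.9. Klf3, a repressor of the Krüppel-like family, stood at 19.2 ± 6.99 and 83.0 ± 12.5. Bcl11a, which silences embryonic beta genes and is named here after its values were seen, stood at 28.8 ± 23.2 and 39.4 ± 11.9, higher in 3 of 4 libraries.

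The mesenchyme markers made up 4277 to 6130 per 1000000 non-globin UMIs in shallow and 3965 to 6751 in deep red cells, so they did not separate the depth classes. The mitochondrial share was 0.955 to 1.90% in shallow and 0.705 to 0.960% in deep cells. Neither was tested as a part of the differences above. Of 7 cycling genes, 1 was higher and 1 lower in all 4 libraries (14.3% each), near the 20% and 8.78% over all genes. Ube2c, a ubiquitin-conjugating enzyme of mitosis, was at 419 ± 94.0 and 2581 ± 483, and Birc5, the mitotic protein survivin, was at 101 ± 59.9 and 34.4 ± 13.6. Of the other globin family genes, the theta-globins Hbq1a and Hbq1b stood at 108 ± 27.98 and 176 ± 42.0 and at 21.4 ± 20.8 and 169.6 ± 58.2, both higher in deep cells in 4 of 4 libraries. The shallow values of both rest on few UMIs too, with 0 for Hbq1b in the second DTA+ library.

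Between the genotypes, none of the non-globin genes of these lists was called in red cells. Of 10 tested cytosol genes 8 had a positive log2 fold change of DTA+ over DTA-, with a list median of 0.15. Of 11 membrane and skeleton genes 9 did, with a median of 0.54, and of 8 heme synthesis genes 5, with a median of 0.27. With 0.0895% of all genes called, a count of 0 is near the background for lists of this length.

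Embryonic globin RNA was close to absent from red cells at this age. Together, Hbb-y, Hba-x and Hbb-bh1 gave 1879 and 57 UMIs in the red cells of the DTA- libraries and 36 and 2 in those of the DTA+ libraries. Per 1000000 globin UMIs this is 200 and 11.7, then 6.70 and 0.639. The first DTA- library stood far above the other 3. Hbb-y had 1208, 2, 30 and 1 UMIs in the 4 libraries, in the same order, and Hba-x had 658, 2, 2 and 1. Hbb-bh1 had 13, 53, 4 and 0 UMIs, and was the one embryonic gene with its highest count in the second DTA- library.

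These UMIs sat in few cells. In the first DTA- library, 4 of 2746 red cells, or 0.146% (95% Clopper-Pearson interval 0.0397 to 0.373), had more than 10% embryonic UMIs among their globin UMIs. Only 1 had more than 50%. No red cell of the other libraries passed 10%, which allows a share of up to 0.152% in the second DTA- library and of 0.159% and 0.310% in the DTA+ libraries. The difference between 4 cells and 0 is within these limits. Over all cells of a library, red or not, there were 2459, 92, 41 and 10 embryonic UMIs. The 5 cells with the most held 88.3%, 96.7%, 65.9% and 100% of these. In the second DTA+ library only 2 red cells and 2 cells under 5% held any, so its 100% was fixed beforehand.

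Of the 4 cells, the most embryonic had 267 UMIs of Hba-x, 204 of Hbb-y and 7 of Hbb-bh1, together 96.0% of its 498 globin UMIs, with 10 of Hba-a1 and 0 of Hbb-bs. A second had 635 UMIs of Hbb-y and 132 of Hba-x beside 399 of Hbb-bs and 256 of Hba-a1. Embryonic and adult chains were thus counted under the same barcode. These cells held 694 to 1928 UMIs, below the median red cell of that library, and whether 1 barcode marks 1 cell was not tested. In the second DTA- library, 52 of the 53 Hbb-bh1 UMIs came from 1 cell with 5670 globin UMIs, which had 0 UMIs of Hbb-y and Hba-x.

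Embryonic UMIs also occurred outside red cells. A single cell of the first DTA- library with 9053 UMIs and 3372 genes had 5.50% globin UMIs, of which 185 were Hba-x, 232 Hbb-y and 10 Hbb-bs. In cells under 5%, Hba-x had 93 and 12 UMIs in the DTA- libraries and 0 and 8 in the DTA+ libraries, and Hbb-y had 15 and 23, then 2 and 0. One cell of the second DTA- library with 21675 UMIs held all 23 of its Hbb-y UMIs, and 1 other held all 12 of its Hba-x UMIs. Hbb-bh1 had 0 UMIs in cells under 5% in every library, at a limit of 0.0503 to 0.0701 CPM.

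**Figure D4:**
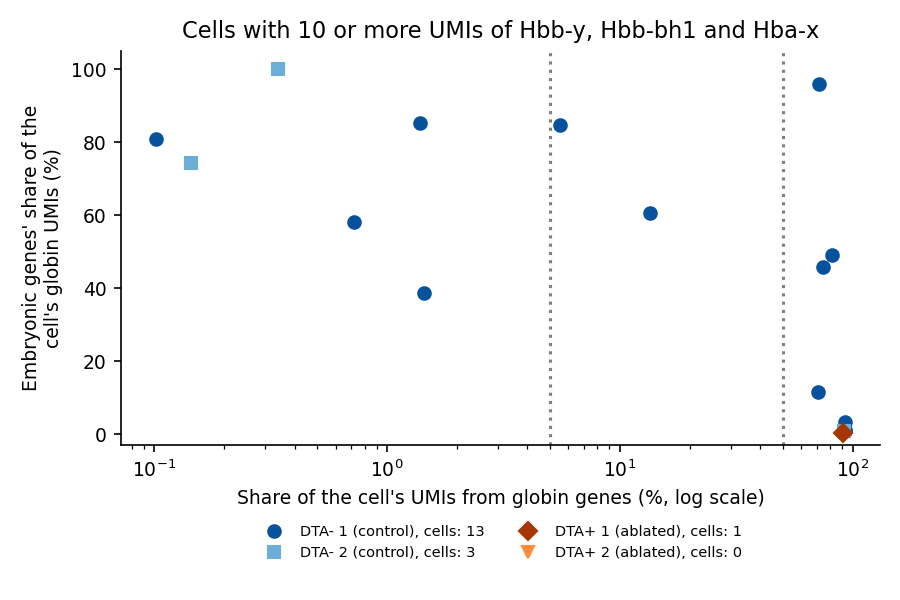
The 17 cells with at least 10 UMIs of Hbb-y, Hbb-bh1 and Hba-x together, by the globin share of the cell (percent, log scale) and the embryonic share of its globin UMIs (percent); dotted lines mark 5% and 50%. Of these cells 13 come from the first DTA- library, 3 from the second, 1 from the first DTA+ library and 0 from the second.

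No test between genotypes can rest on so few cells. The log2 fold change of Hbb-y in red cells was -4.29 (SE 1.07) with an adjusted p of 0.241 in edgeR's quasi-likelihood test. It was called in 5 of 9 other settings (adjusted p of 6.10e-34 to 0.999) and in 2 of 4 fits with 1 library left out. Without the first DTA- library it was 2.84 and not called. In cells under 5% it was -3.96 (SE 0.95) for Hbb-y and -3.41 (SE 1.2) for Hba-x, with adjusted p-values of 0.211 and 0.312. Here Hbb-y was called by the likelihood ratio test (adjusted p = 0.000845) and without the filter (adjusted p = 0.0291), and Hba-x without the second DTA+ library (adjusted p = 0.0348). In the unnamed clusters of these cells, which had 53 and 12 embryonic UMIs in the DTA- libraries and 2 and 1 in the DTA+ libraries, Hba-x was at -5.72 (SE 1.16, adjusted p = 0.0531), and DESeq2 called it (adjusted p = 0.00850). Hba-x and Hbb-bh1 in red cells and Hbb-bh1 in cells under 5% did not pass the filter on low counts.

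The genes most alike to the embryonic share across 7572 red cells were Atp6v1f, Atp6v1g1, Selenow, Ndufb9 and Sub1, at Pearson's r of only 0.08 to 0.10 across cells. Without the 4 cells above 10% the same genes were at -0.01 to 0.03. Cells of 1 library share depth and free RNA, and so weak a likeness in sparse counts is a description only.

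Globin UMIs in cells that are not red cells are called background here. Free RNA of broken cells and cells caught in 1 droplet are known to give such UMIs in droplet libraries, and their parts were not tested. Cells under 5% globin UMIs carried 1295 and 1216 globin CPM in the DTA- libraries and 827 and 475 in the DTA+ libraries. The means were 1255 ± 55.8 (SD, n = 2) and 651 ± 249 (SD, n = 2), and the groups did not overlap (exact permutation p = 0.333, adjusted over the 8 shares and levels 0.533). In the same order, red cells were 21.8%, 17.02%, 16.3% and 8.54% of the cells. Background and red cells thus had the same order of libraries, and the part of the red cells in the background was not tested.

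Each adult gene went the same way. Hbb-bs had 799 and 801 CPM in the DTA- libraries and 520 and 293 in the DTA+ libraries. Hba-a1 had 184 and 159, then 119 and 65.4. Hbb-bt had 169 and 132, then 94.7 and 58.4, and Hba-a2 had 141 and 124, then 93.5 and 58.3. For all 4 the groups did not overlap, with DTA+ lower, as for 16.8% of all 16886 genes tested. The log2 fold changes were -1.04 (SE 0.25) for Hbb-bs, -1.04 (SE 0.25) for Hbb-bt, -0.96 (SE 0.27) for Hba-a1 and -0.87 (SE 0.23) for Hba-a2. In edgeR's quasi-likelihood test the adjusted p-values were 0.205 to 0.249, so none was called, where 0.107% of all genes were called. DESeq2 called all 4, at adjusted p-values of 0.00139 to 0.00997.

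A few cells stood above the general level. Cells of at most 1% globin UMIs were 97.1 to 99.6% of the cells under 5% but held only 42.3 to 58.7% of their globin UMIs. In them the level was 682 and 530 CPM in the DTA- libraries and 492 and 224 in the DTA+ libraries. Between the genotypes, 3 of the adult genes then overlapped, since Hba-a1, Hba-a2 and Hbb-bt had 70.9, 60.3 and 59.7 CPM in the second DTA- library and 75.8, 62.0 and 66.9 CPM in the first DTA+ library. Hbb-bs had 407 and 338 CPM, then 287 and 131, without overlap. The median cell of at most 1% had 3 and 2 globin UMIs in the DTA- libraries and 2 and 1 in the DTA+ libraries.

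Such low counts were found in most cells. At least 1 globin UMI was present in 95.3% and 79.95% of cells under 5% in the DTA- libraries and in 85.1% and 60.4% in the DTA+ libraries, at median depths of 5186, 4238, 3619 and 3671 UMIs. After thinning each cell to 1000 UMIs, with 417 to 641 shallower cells left out per library, the shares were 48.9% and 35.4%, then 40.9% and 21.6%. Before and after thinning, the second DTA- library lay below the first DTA+ library, so the genotypes overlapped. None of these cells is read as expressing globin.

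Every kind of cell carried the background. Cells under 5% globin and with 1000 to 7500 UMIs, 30321 in number, were clustered without the globin genes, and 10 of 26 clusters could be named from markers into 9 classes. In the first DTA- library, cells of at most 1% globin UMIs held between 479 CPM in the mast cell-like and 1153 CPM in the pericyte-like class. In the second DTA+ library the range was 188 CPM in the mast cell-like to 303 in the macrophage-like class. The other libraries lay between, at 375 (glia-like) to 883 (pericyte-like) in the second DTA- library and 371 (mast cell-like) to 744 (endothelium-like) in the first DTA+ library. Epithelium-like cells stood at 1075 and 525 CPM in the DTA- libraries and at 622 and 208 in the DTA+ libraries. The median cell had 2 or 3 globin UMIs in each class of the first DTA- library and 1 in each class of the second DTA+ library. In the second DTA- library it had 2 in the endothelium- and macrophage-like classes and 1 in the others. In the first DTA+ library it had 1 in the mast cell-like class and 2 in the others, so the genotypes overlapped.

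**Figure D5:**
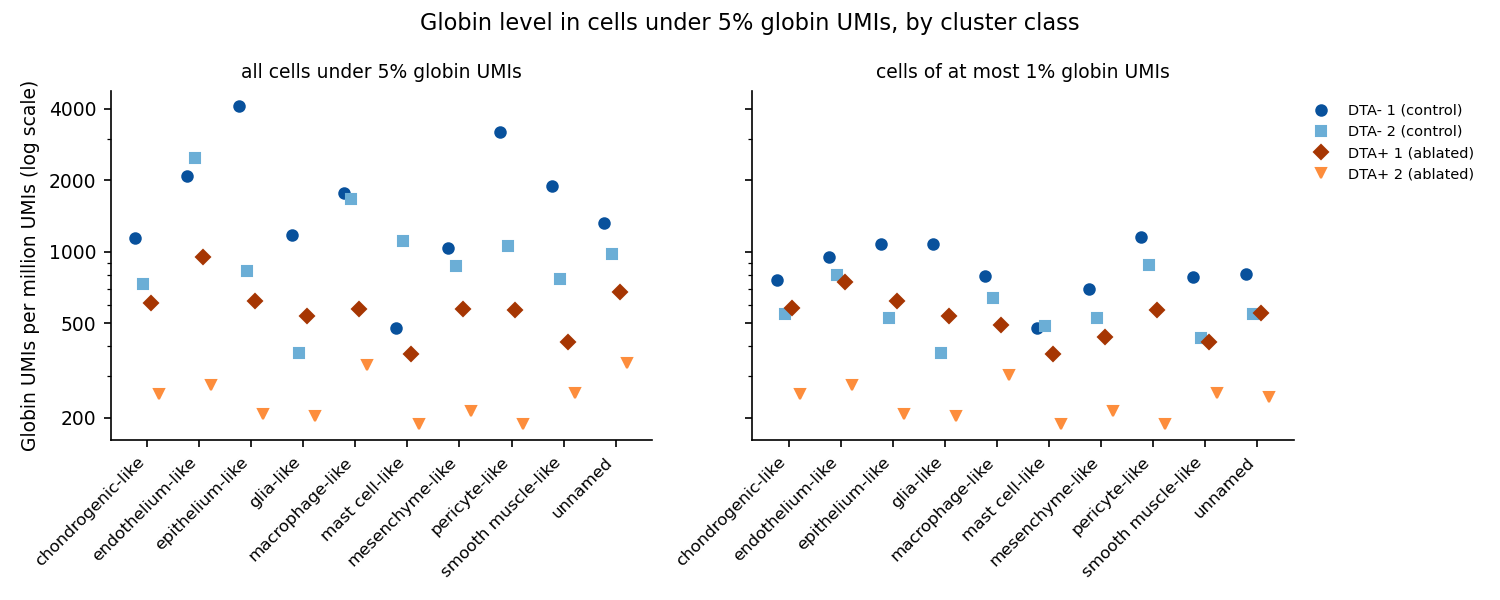
Globin CPM (log scale) in cells under 5% globin UMIs by cluster class, on the left for all these cells and on the right for those of at most 1%, 1 point per library. On the left the epithelium-like cells of the first DTA- library stand highest at 4097 CPM; on the right the classes of 1 library lie closer together, and the second DTA+ library is the lowest in each class.

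With cells above 1% included, every class had a higher mean in DTA- than in DTA+. Epithelium-like cells carried 2466 ± 2307 CPM in DTA- and 415 ± 293 in DTA+ (SD, n = 2 each), and pericyte-like cells 2126 ± 1508 and 379 ± 270. In the first DTA- library, cells above 1% were 7.84% of 102 epithelium-like and 4.55% of 22 pericyte-like cells. They held 76.4 and 65.7% of the globin UMIs of these classes. In the second DTA- library, cells above 1% held 37.7 and 17.5%, and in both DTA+ libraries 0%. Smooth muscle-like cells, few in the second DTA+ library, carried 1326 ± 792 and 335 ± 114. Endothelium-like cells carried 2282 ± 276 and 614 ± 481, and macrophage-like cells 1722 ± 75.9 and 454 ± 168. Of the globin UMIs of the DTA- libraries, 57.2 and 69.5% (endothelium-like) and 57.3 and 64.2% (macrophage-like) came from the few cells above 1%. These were 6.90 and 8.87% of 116 and 124 endothelium-like cells, and 4.44 and 7.41% of 90 and 81 macrophage-like cells. In the DTA+ libraries, cells above 1% held 23.1 and 0% and 14.7 and 10.0%. Doublets were not removed, and their part was not tested.

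Tested by class, adult globins fell in DTA+ in the chondrogenic-like cells. The log2 fold changes in edgeR's quasi-likelihood test were -1.32 (SE 0.26, adjusted p = 0.00324) for Hbb-bs, -1.14 (SE 0.30, adjusted p = 0.0241) for Hba-a1, -1.08 (SE 0.26, adjusted p = 0.0137) for Hbb-bt and -1.01 (SE 0.24, adjusted p = 0.0140) for Hba-a2. In this class 8.84% of 11012 genes were called, 4.69% lower. Its globin level was 1144 and 734 CPM in the DTA- libraries and 611 and 253 in the DTA+ libraries, without overlap. In cells of at most 1% it was 764 and 546, then 578 and 253, and the groups overlapped. DESeq2 called none of the 4 in this class (adjusted p of 0.335 to 0.594), and without the second DTA+ library Hbb-bs alone was called.

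In the 8 other sets tested, 7 named classes and the unnamed clusters together, no adult globin was called by edgeR, while DESeq2 called Hbb-bs in the macrophage-like class (adjusted p = 1.64e-09). Of all genes, 0% were called in the endothelium-, epithelium-, macrophage- and pericyte-like classes, 0.021% in the glia-like, 0.412% in the mast cell-like and 0.543% in the mesenchyme-like class, and 2.19% in the unnamed clusters. The log2 fold changes of the 30 adult globins tested ran from -0.58 (Hbb-bt, glia-like) to -2.98 (Hbb-bt, epithelium-like), all negative. Without the first DTA- library, Hbb-bt in epithelium-like cells was at -0.65 and Hba-a1, at -2.36 with all 4, was at -0.62. The nearest to the threshold were Hbb-bs in pericyte-like cells, with -2.47 (SE 0.42) and an adjusted p of 0.0553, and in the unnamed clusters, with -1.29 (SE 0.27) and an adjusted p of 0.0569. Pericyte-like cells numbered only 22 in the first DTA- library. Whether the difference was larger in 1 class than in another was not tested. Smooth muscle-like cells had too few cells in the second DTA+ library to enter.

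In summed UMIs, the background did not have quite the proportions of the red cells of its own library. Hbb-bs to Hbb-bt was 4.73 and 6.08 in cells under 5% of the DTA- libraries and 5.49 and 5.01 in those of the DTA+ libraries. This was 1.34-fold the ratio in red cells, a log2 difference of 0.42 ± 0.06 (SD, n = 4), higher in 4 of 4 libraries. Hba-a1 to Hba-a2 was lower in 4 of 4 libraries by a log2 difference of -0.12 ± 0.07, and adult alpha to adult beta by -0.21 ± 0.09 (SD, n = 4 each). For all 3 ratios the exact two-sided sign-flip permutation test gave p = 0.125, the smallest that 4 libraries allow, and 0.150 adjusted over 6 comparisons within libraries. For Hbb-bs to Hbb-bt, cells of 1 to 5% globin UMIs had the higher values, at 5.33 and 6.40 in DTA- and 8.24 and 5.86 in DTA+. In cells under 1% this ratio was 4.24 and 5.66, then 4.30 and 4.24, still above that of red cells in 4 of 4 libraries. Adult alpha to adult beta under 1% was 0.354 and 0.330, then 0.389 and 0.383. In red cells it was 0.371 and 0.377, then 0.409 and 0.383, so the second DTA+ library was not lower. At 1 to 5% it was 0.318 and 0.283, then 0.288 and 0.326. Hba-a1 to Hba-a2 was 1.23 and 1.18, then 1.22 and 1.02 under 1%, lower than in red cells in each library. At 1 to 5% it was 1.38 and 1.38, then 1.36 and 1.23, and not lower in each. In such sums red cells with more UMIs weigh more. The background ratio of Hbb-bs to Hbb-bt lay in each library between those of deep red cells (2.91 to 3.15) and shallow red cells (11.5 to 13.5). The part of this weighting in the difference was not tested.

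Cells of 5 to 50% globin UMIs shared part of this. Their Hba-a1 to Hba-a2 differed from that of red cells by 0.00 ± 0.01 on the log2 scale (SD, n = 4), with 2 of 4 libraries higher. Hbb-bs to Hbb-bt was higher in 4 of 4 libraries by 0.22 ± 0.11, and adult alpha to adult beta was lower in 4 of 4 by -0.33 ± 0.03 (SD, n = 4; exact sign-flip permutation p = 0.125 for both). They held 465 and 388 cells in the DTA- libraries and 276 and 117 in the DTA+ libraries, with a median of 1690.5 to 1940 genes per cell, as against 94 to 118 in red cells. Endothelial markers summed to 633 to 1869 per 1000000 non-globin UMIs in them, against 246 to 353 in cells under 5%. Mesenchyme markers summed to 6310 to 13183, more than the endothelial markers. In each library this was less than in cells under 5%, which had 9379 to 14809. Mast cell markers were at 622 and 1039 in DTA- and 1700 and 1671 in DTA+, against 908 and 1042, then 993 and 695. Macrophage markers were at 115 and 198, then 392 and 1020, against 320 and 317, then 359 and 305.

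The background ratios were compared between genotypes too. Hba-a1 to Hba-a2 in cells under 5% was 1.30 and 1.28 in the DTA- libraries and 1.27 and 1.12 in the DTA+ libraries (exact permutation p = 0.333). Adult alpha to adult beta was 0.336 and 0.303, then 0.345 and 0.352 (exact permutation p = 0.333). In neither did the groups overlap, at log2 differences of -0.11 and 0.13, while Hbb-bs to Hbb-bt overlapped (log2 difference -0.03, exact permutation p = 1.0).

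The genes whose level was most alike to summed globin across 102 sums of cells under 5%, 1 per library and cluster, were Fkbp5, Atp5k, Tmem256, Sult1a1 and Yif1b, at Pearson's r of 0.55, 0.49, 0.48, 0.46 and 0.44 among 11082 genes. Sums of 1 library share its free RNA and depth, so these are not independent points. Of the non-globin genes of red cells, none of the lists had a member called in cells under 5%. Of 9 tested cytosol genes, 1 had a positive log2 fold change with a list median of -0.23, and of 11 membrane and skeleton genes 5 did, with a median of -0.08, against a median of -0.00 over all genes.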

How the data were processed

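Single-cell mRNA was measured in 2 DTA- and 2 DTA+ penises of E16.5. According to the methods and the submitters' processing notes, the authors mapped 10x Genomics 3' reads to mm10, extended by reporter genes, using Cell Ranger (the notes give 4.0.0). What they deposited are raw UMI counts for each gene in each called cell. The genome holds 1 set of beta genes, and the beta haplotype of these mice is not given in the sources used here. A red cell's total and its ratios can thus shift if reads of near-identical copies were dropped as ambiguous.

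The members and gene lists were chosen with earlier results of these data known. For each library, UMIs were added up over cells of at least 50%, 5 to 50% and under 5% globin UMIs. Genotypes were compared by edgeR 4.0.16 in R 4.3.3 (quasi-likelihood test on genotype alone, TMM scaling, low genes dropped by filterByExpr), with Benjamini-Hochberg adjusted p under 0.05 over all genes tested as a call. Exact permutation tests over libraries were used for ratios and shares. Intervals are 95% Clopper-Pearson, and the limit at a count of 0 is 3 counts. For classes, cells under 5% with 1000 to 7500 UMIs and at most 25% mitochondrial UMIs were grouped by the Leiden method (leidenalg 0.10.2, resolution 0.8, 2000 variable genes without globins, 30 components, 20 neighbours). Naming needed 3 or more enriched markers, and its limits were chosen with the clusters known. Sets with 20 or more cells in every library were tested. Doublets were kept.

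Named in the text are the 7 globins, list members by mean level and the genes most alike in pattern; other called genes, which the rule also covered, are not described, and 1 list member is not reported here. The edgeR step was tested on simulated data in which 200 genes had a true log2 fold change of 1. Over 5 runs, the median share of these genes that was found was 24% for red cells and 48% for cells under 5%. The median number of false calls was 4 and 15. A gene that was not called can thus still differ between the genotypes. Alternatives were DESeq2 1.42.0, a likelihood ratio test, other scalings, filters and cell limits, a replicate block and leaving out each library; the depth classes of red cells were added after the data were seen. Sequences came from RefSeq and positions from GENCODE M21, both on GRCm38. Python 3.11.15, numpy 2.4.6, scipy 1.17.1, pandas 2.3.3, biopython 1.88 and matplotlib 3.10.9 were used.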

Additional observations from a re-analysis of the deposited data

Results flagged for a closer look

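Hba-a2 had CPM of opposite order between the genotypes, without overlap, in 2 sets of cells. Its log2 fold change of DTA+ over DTA- was 0.022 in cells of at least 50% globin UMIs and -2.33 in the epithelium-like class. Neither was called, the former is smaller than its SE of 0.257 and turned negative in other settings, and the difference between them was not tested, so no opposite direction is shown.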

How the results depend on the processing

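With 2 libraries per genotype, counts of genes called depended on the setting. In red cells, 4 genes were called, and 19 with a limit of 30% globin UMIs, 0 with 70% (edgeR), 1 in cells of 1000 to 7500 UMIs, 2 by DESeq2, 12 by the likelihood ratio test, 14 without the filter and 9 scaled by non-globin UMIs. Leaving out 1 library gave 0 (without the second DTA+ library) to 31 (without the first DTA-). In cells under 5%, 18 were called, and 88 in cells of 1000 to 7500 UMIs, 520 by DESeq2, 500 by the likelihood ratio test, 487 without the filter, and 0 (without either DTA- library) to 281 (without the first DTA+) with 1 library left out. Of 34 tests of adult globins in classes, 4 were called and 1 by DESeq2. With 1 library left out, 11 (without the second DTA+ library) to 28 (without the first DTA+) of 35 were called. The cause was not tested.

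The replicate block gave 13 genes in red cells, 230 in cells under 5%, where all 4 adult globins were then called, and 28 of the class tests. Same-numbered samples correlated at only -0.02 and -0.06 in their deviations, so the numbers were not taken as pairs.

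The log2 difference of Hbb-bs to Hbb-bt between genotypes changed sign. In red cells it was -0.09, and 0.10 in those of 500 to under 2000 UMIs and -0.21 to 0.030 with 1 library left out. Under 5% it was -0.03, and 0.071 for all cells under 50%, 0.016 in cells of 1000 to 7500 UMIs and -0.21 to 0.15 with 1 library left out. In red cells, the log2 fold change of Hba-a1 was 0.17 with a limit of 30%, 0.078 with 70%, 0.041 without TMM and 0.034 scaled by non-globin UMIs. For Hbb-bt these were 0.16, 0.095, 0.048 and 0.049, with 0.014 by DESeq2. For Hbb-bs they were 0.090 at 30% and 0.0023 at 70%, and for Hba-a2 -0.031 in cells of 1000 to 7500 UMIs and -0.054 without the filter. With 1 library left out, they ran from -0.17 to 0.082 for Hba-a1, -0.15 to 0.16 for Hba-a2, -0.30 to 0.051 for Hbb-bs, -0.24 to 0.18 for Hbb-bt and -7.44 to 2.84 for Hbb-y, which was called in 2 of these 4 fits and in 5 of 9 other settings. In glia-like cells they ran from -2.22 to 0.68 for Hba-a1 and -1.36 to 1.12 for Hbb-bt, positive without the first DTA- library.

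The difference in the share of red cells above 10% embryonic UMIs ran from -0.146 to 0 percentage points and above 50% from -0.0364 to 0, with 0 where the first DTA- library was left out. Thinned to 1000 UMIs, the latter was 0 too, since the cell above 50% had fewer UMIs. The cause of the other changes was not tested. The embryonic globin UMIs in red cells came from only 2 to 20 cells per library, and the part of depth in this was not tested.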
